A study of Mus musculus with 30 samples.

Results

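Poly(A) RNA levels of 10 genes for subunits of the BAF (mammalian SWI/SNF) chromatin remodelling complex were compared across 8 mouse cell lines at the neuronal progenitor cell (NPC) stage of in vitro differentiation from embryonic stem cells (ESCs). The genes were taken by symbol from the 25400 genes of the count table because their products are exchanged while ESCs become neural cells: *Actl6a*, *Actl6b*, *Smarcd1*, *Smarcd3*, *Smarcc1*, *Smarcc2*, *Dpf1*, *Dpf3*, *Phf10* and *Smarca2*. All 10 were found, and all 10 were among the 16582 genes kept by a filter on low counts. Each line had 3 libraries, which gave 24 in all. The lines were wild type (WT) cells, *Mbd3* KO cells made by CRISPR, and *Mbd3* KO cells carrying a biotin-tagged construct under the CAG promoter at a recombination site shared by all constructs. The constructs encoded MBD3a, MBD3ΔMBD (no MBD domain), MBD2a, MBD2aΔGR (no glycine-arginine stretch), MBD2aR181C (a point mutant of the MBD domain, named here as in the sample titles, while the count columns taken for it are headed R64C) and MBD2t (the truncated isoform). The main text of the paper names its MBD2a point mutant MBD2aR191C, which was taken to be the same line. All construct lines thus shared the *Mbd3* deletion. Libraries came from separately derived clones, except that those of MBD2t were triplicates of 1 clone, so that their spread holds no difference between clones. MBD2 and MBD3 are alternative subunits of the NuRD complex, and the comparisons ask which of these proteins can take the place of MBD3 when NPCs are formed.

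BAF complexes use ATP to move nucleosomes and are assembled from gene families, of which a complex takes a single member at many positions. ESCs and dividing neural progenitors carry the actin-like subunit ACTL6A (BAF53a) and the double PHD finger protein PHF10 (BAF45a), and on leaving the cell cycle neurons replace them with ACTL6B (BAF53b) and with DPF1 (BAF45b) or DPF3 (BAF45c). SMARCC1 (BAF155) is the scaffold subunit typical of ESCs, while SMARCC2 (BAF170) joins it as neural differentiation proceeds. SMARCD1 (BAF60a) and SMARCD3 (BAF60c) are alternatives at a further position, and SMARCA2 (BRM) is the ATPase that can stand in for SMARCA4 (BRG1).

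Library totals lay between 27993858 and 49392806 counts, and levels are given as CPM, the counts scaled to a common library size by TMM. A level of 3 counts was at most 0.115 CPM, a limit for counting error only. *Mbd3* RNA was lower in *Mbd3* KO than in WT, with a log2 fold change of -1.38 (adjusted p = 0.000283, edgeR quasi-likelihood test). The 9 of 10 neural progenitor markers in the table summed to 1285 to 1547 CPM in the WT libraries. The sums were 130.5 to 188 CPM in *Mbd3* KO, 129 to 288 CPM in MBD2a and 172 to 201 CPM in MBD2t, so the libraries of these 3 lines held little of the RNA that defines the labelled cell type. The deposited columns number the libraries s01 to s24. In WT, library s03 stood apart from the other 2: its 10 neuron genes summed to 1412 CPM, against 2867 and 3388 CPM, and its 10 pluripotency genes to 188 CPM, against 25.7 and 43.9 CPM. This library also had the lowest *Actl6b*, *Dpf1*, *Dpf3* and *Smarcc2* levels and the highest *Actl6a* level of the WT libraries. In MBD2aΔGR, library s18 held 3592 CPM of 10 endoderm genes, against 284 and 382 CPM in the other 2. Its neural progenitor markers summed to 712 CPM, against 1113 and 1432 CPM. Its *Actl6a*, *Actl6b*, *Dpf1*, *Dpf3*, *Smarcd1*, *Smarcc1* and *Smarcc2* levels were the lowest of that line, and its *Smarca2* and *Smarcd3* levels the highest. Library s04 stood apart in *Mbd3* KO: its pluripotency genes summed to 1073 CPM, against 572 and 344 CPM. Its neuron genes summed to 119 CPM, against 210 and 269 CPM, and its *Actl6b*, *Dpf3*, *Smarcc2* and *Smarcd3* levels were the lowest of that line.

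The promoters of both actin-like subunits, of *Dpf1* and of *Phf10* are shown because these genes stand on opposite sides of the exchange, and because the constructs include proteins with a domain that binds methylated CG. The sequences are from RefSeq on GRCm38.p6 and run from 250 bases before to 50 bases after the gene start, 5′ to 3′ on the strand of the gene, with every CG in capitals. The *Actl6a* promoter (chr3:32708296-32708595, plus strand) held 21 CG, the *Actl6b* promoter (chr5:137553296-137553595, plus strand) held 23, the *Dpf1* promoter (chr7:29303755-29304054, plus strand) held 39 and the *Phf10* promoter (chr17:14961211-14961510, minus strand) held 62.
Actl6a: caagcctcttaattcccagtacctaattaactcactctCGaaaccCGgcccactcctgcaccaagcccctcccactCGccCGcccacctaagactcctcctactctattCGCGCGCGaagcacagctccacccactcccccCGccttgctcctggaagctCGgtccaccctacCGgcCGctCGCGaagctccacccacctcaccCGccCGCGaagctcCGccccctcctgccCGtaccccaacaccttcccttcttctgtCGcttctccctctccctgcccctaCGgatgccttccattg
Actl6b: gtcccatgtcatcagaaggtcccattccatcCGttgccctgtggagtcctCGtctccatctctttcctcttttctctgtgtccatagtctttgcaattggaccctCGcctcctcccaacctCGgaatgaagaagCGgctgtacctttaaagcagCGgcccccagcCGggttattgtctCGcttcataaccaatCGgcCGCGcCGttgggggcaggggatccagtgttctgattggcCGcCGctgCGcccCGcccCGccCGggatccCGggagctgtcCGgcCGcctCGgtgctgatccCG
Dpf1: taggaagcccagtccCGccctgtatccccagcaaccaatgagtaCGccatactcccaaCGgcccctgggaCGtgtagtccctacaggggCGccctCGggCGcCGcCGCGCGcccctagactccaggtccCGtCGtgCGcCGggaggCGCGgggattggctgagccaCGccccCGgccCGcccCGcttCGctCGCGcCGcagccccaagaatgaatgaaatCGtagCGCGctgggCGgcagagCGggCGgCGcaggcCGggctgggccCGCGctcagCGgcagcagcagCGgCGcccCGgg
Phf10: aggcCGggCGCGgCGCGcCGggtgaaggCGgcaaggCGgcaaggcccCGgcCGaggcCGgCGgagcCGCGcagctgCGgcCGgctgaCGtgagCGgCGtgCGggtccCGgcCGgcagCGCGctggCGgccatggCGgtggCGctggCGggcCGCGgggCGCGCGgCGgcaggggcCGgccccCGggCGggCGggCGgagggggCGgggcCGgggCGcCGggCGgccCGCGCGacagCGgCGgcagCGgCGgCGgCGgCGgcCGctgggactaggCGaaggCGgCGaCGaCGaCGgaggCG
The 10 promoters of the set held 17 (*Dpf3*) to 62 (*Phf10*) CG, with a median of 34, while the median of 32851 RefSeq promoters of the same length was 7. At least 1 CG was present in 94.6% of these promoters. Of all promoters, 78.5% held fewer CG than that of *Actl6b* and 95.6% fewer than that of *Dpf1*. Methylation of these promoters was not analysed here.

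*Actl6a* is also known as a target of the neural miRNA miR-9-3p, which helps to end its expression in neurons. Its mature sequence in RefSeq is shown with the seed, bases 2 to 8, in capitals, beside the only stretch of the annotated *Actl6a* 3′ UTR that pairs with the seed, with the 7 matching bases in capitals.
mmu-miR-9-3p: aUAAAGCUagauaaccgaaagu
Actl6a 3′ UTR: tcaacgtctgtAGCTTTAgtacactcagg
The match began at base 38 of a 366-base 3′ UTR. AGCTTTA on the transcript strand was present in 1958 of 19915 annotated 3′ UTRs (9.8%). *Smarcc1* held 2 such matches and *Smarca2* held 1, and none was found in the 3′ UTRs of the other 7 genes. Poly(A) libraries do not measure the mature miRNA.

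In WT NPCs, levels per kb of exon ran from 1.77 for *Dpf3* to 74.5 for *Smarcd1*. On this CPM per kb scale, *Smarcd1* was followed by the scaffold genes *Smarcc1* (56.5 ± 10.1, SD, n = 3) and *Smarcc2* (44.6 ± 13.8) and by *Actl6a* (44.7 ± 11.2), and these 3 overlapped between libraries. *Phf10* lay at 17.1 ± 1.23 CPM per kb. *Dpf1* (8.18), *Smarca2* (5.42), *Smarcd3* (5.24) and *Actl6b* (4.66) lay below it. WT NPCs thus held RNA of both actin-like subunits, with far more of the ESC and progenitor form.

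Relative to WT, 6 of the 10 members fell in *Mbd3* KO, and *Phf10* and *Smarca2* rose. A gene was called where the adjusted p was under 0.05 and the log2 fold change was above 1 or below -1 in edgeR's quasi-likelihood test over all 16582 genes, with Benjamini-Hochberg adjustment. By this rule 3 members were lower in *Mbd3* KO (*Actl6b*, *Dpf1* and *Smarcd3*) and none was higher, while 14.2% of all genes tested were called lower. By adjusted p alone, 6 members were lower and 2 were higher, against 30.8% of all genes lower and 29.5% higher. For 8 members the *Mbd3* KO and WT libraries did not overlap, against 62.2% of all genes. The median log2 fold change of the members was -0.75, and that of all genes was -0.03. Without WT library s03, 5 members were called, as *Smarcc2* (-1.10, adjusted p = 0.000272) and *Dpf3* (-1.06, adjusted p = 0.0487) also passed.

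The lines with MBD2a and MBD2t showed members lower than in WT as well. In MBD2a, 4 members were called lower (*Actl6b*, *Dpf1*, *Dpf3* and *Smarcc2*), and 13.7% of all genes were. By adjusted p alone 6 were lower and 1 was higher (all genes 28.1% and 27.4%), and the libraries of 7 did not overlap those of WT (all genes 56%). In MBD2t, 5 members were called lower (*Actl6b*, *Dpf1*, *Dpf3*, *Smarcd3* and *Smarcc2*), against 15.1% of all genes. By adjusted p alone 7 were lower and 2 were higher (all genes 31.1% and 28.7%), and 9 did not overlap WT (all genes 69.2%). Without WT library s01 or s02, 3 members were called in MBD2t. Median log2 fold changes of the members were -0.55 in MBD2a and -0.89 in MBD2t. The shares of members whose libraries did not overlap WT were not far from those of all genes. The comparisons of all lines with WT use the same 3 WT libraries and are not independent of each other.

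**Figure D1:**
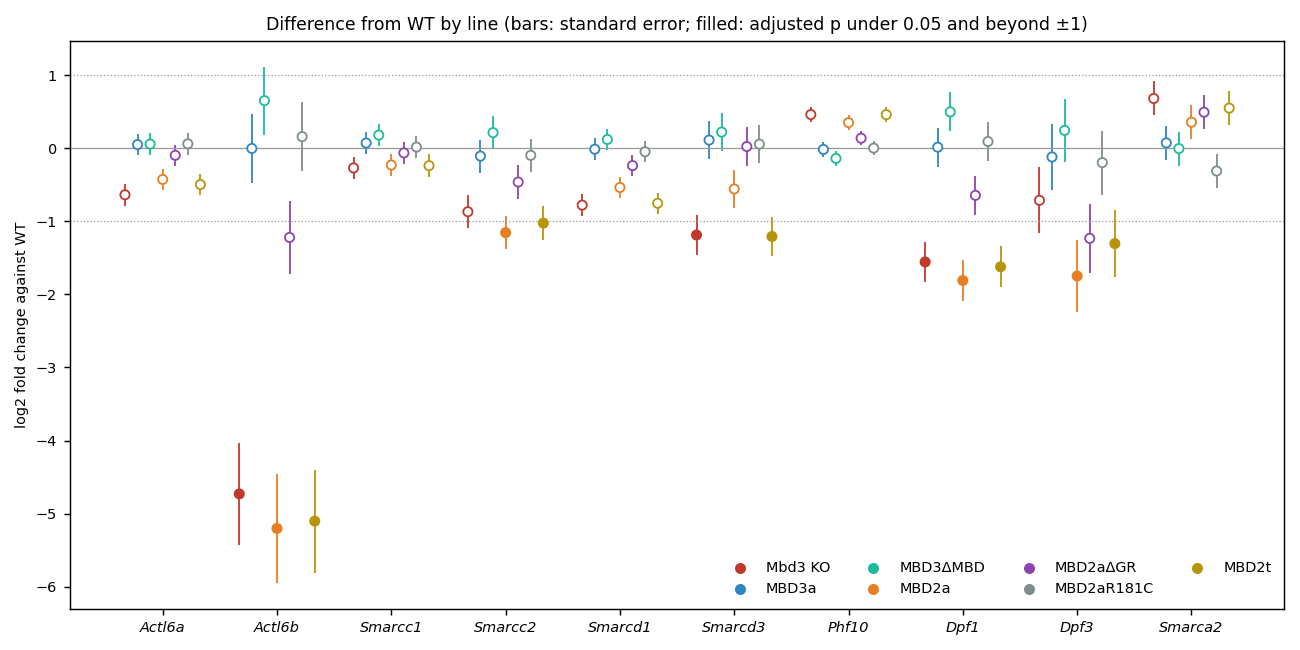
Log2 fold change against WT (vertical axis) of the 10 BAF subunit genes (horizontal axis) in each of the 7 other lines, with bars for the standard error of the edgeR fit and filled points for called genes. *Actl6b* lay between -5.20 and -4.73 in *Mbd3* KO, MBD2a and MBD2t, *Phf10* lay above 0 in these 3 lines, and no point of MBD3a, MBD3ΔMBD, MBD2aΔGR or MBD2aR181C is filled.

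No member was called against WT in the other 4 lines. With MBD3a the log2 fold changes of the members ran from -0.12 to 0.11, with MBD3ΔMBD from -0.14 to 0.65 and with MBD2aR181C from -0.31 to 0.16. For these 3 lines edgeR gave no member an unadjusted p under 0.05, DESeq2 called 0 members, and the libraries of every member overlapped those of WT. Of all genes, 5.18% did not overlap WT with MBD3a, 11.7% with MBD3ΔMBD and 6.56% with MBD2aR181C, so that 0 of 10 was near the background. Across all genes, 0% were called with MBD3a, 0.0181% with MBD3ΔMBD and 0.0181% with MBD2aR181C. With MBD2aΔGR, 5.16% of all genes and 0 members were called (0 also by DESeq2), but 4 members had an unadjusted p under 0.05. *Dpf3* had a log2 fold change of -1.23 (adjusted p = 0.105) there, *Actl6b* of -1.22 (adjusted p = 0.130), *Dpf1* of -0.64 (adjusted p = 0.135) and *Smarca2* of 0.49 (adjusted p = 0.183). The MBD2aΔGR libraries overlapped those of WT for all 10 members, while 18.8% of all genes did not overlap. Leaving out 1 library changed 2 of these results. *Actl6b* passed without WT library s03 (-1.58, adjusted p = 0.0478) or MBD2aΔGR library s16 (-1.94, adjusted p = 0.0228), and *Dpf3* passed without s03 (-1.58, adjusted p = 0.0401) or s16 (-1.68, adjusted p = 0.0399).

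Among the actin-like subunits, *Actl6b* (chromosome 5, 137994745 to 138010810, plus strand, mm9), the neuron-specific form needed for dendrite growth, differed most. Its levels were 14.2, 9.02 and 3.94 CPM in the WT libraries. In the *Mbd3* KO libraries they were 0.0572, 0.420 and 0.503 CPM, which are 2, 19 and 19 counts. The MBD2a libraries held 0.345, 0.354 and 0.0510 CPM and the MBD2t libraries 0.250, 0.345 and 0.202 CPM. All 9 libraries of these 3 lines lay below the lowest WT library, and the libraries at 2 counts, 1 of *Mbd3* KO and 1 of MBD2a, were at or under the limit of 3 counts. Levels were 12.5, 7.25 and 7.29 CPM with MBD3a, 8.18, 17 and 17.1 CPM with MBD3ΔMBD and 15.2, 5.18 and 9.74 CPM with MBD2aR181C. With MBD2aΔGR they were 6.85, 2.98 and 1.88 CPM. MBD3a, MBD3ΔMBD and MBD2aR181C overlapped WT, and MBD2aΔGR lay lower, with 1 library inside the WT range and 2 between it and the *Mbd3* KO range. The log2 fold change against WT was -4.73 (adjusted p = 1.47e-05, standard error 0.693) in *Mbd3* KO by the quasi-likelihood test. It was -5.20 (adjusted p = 1.98e-05, standard error 0.746) in MBD2a and -5.10 (adjusted p = 8.47e-06, standard error 0.706) in MBD2t. In order of the line means, MBD3ΔMBD, MBD2aR181C, WT and MBD3a each overlapped the next, MBD2aΔGR stood apart from both its neighbours, and *Mbd3* KO, MBD2t and MBD2a overlapped.

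**Figure D2:**
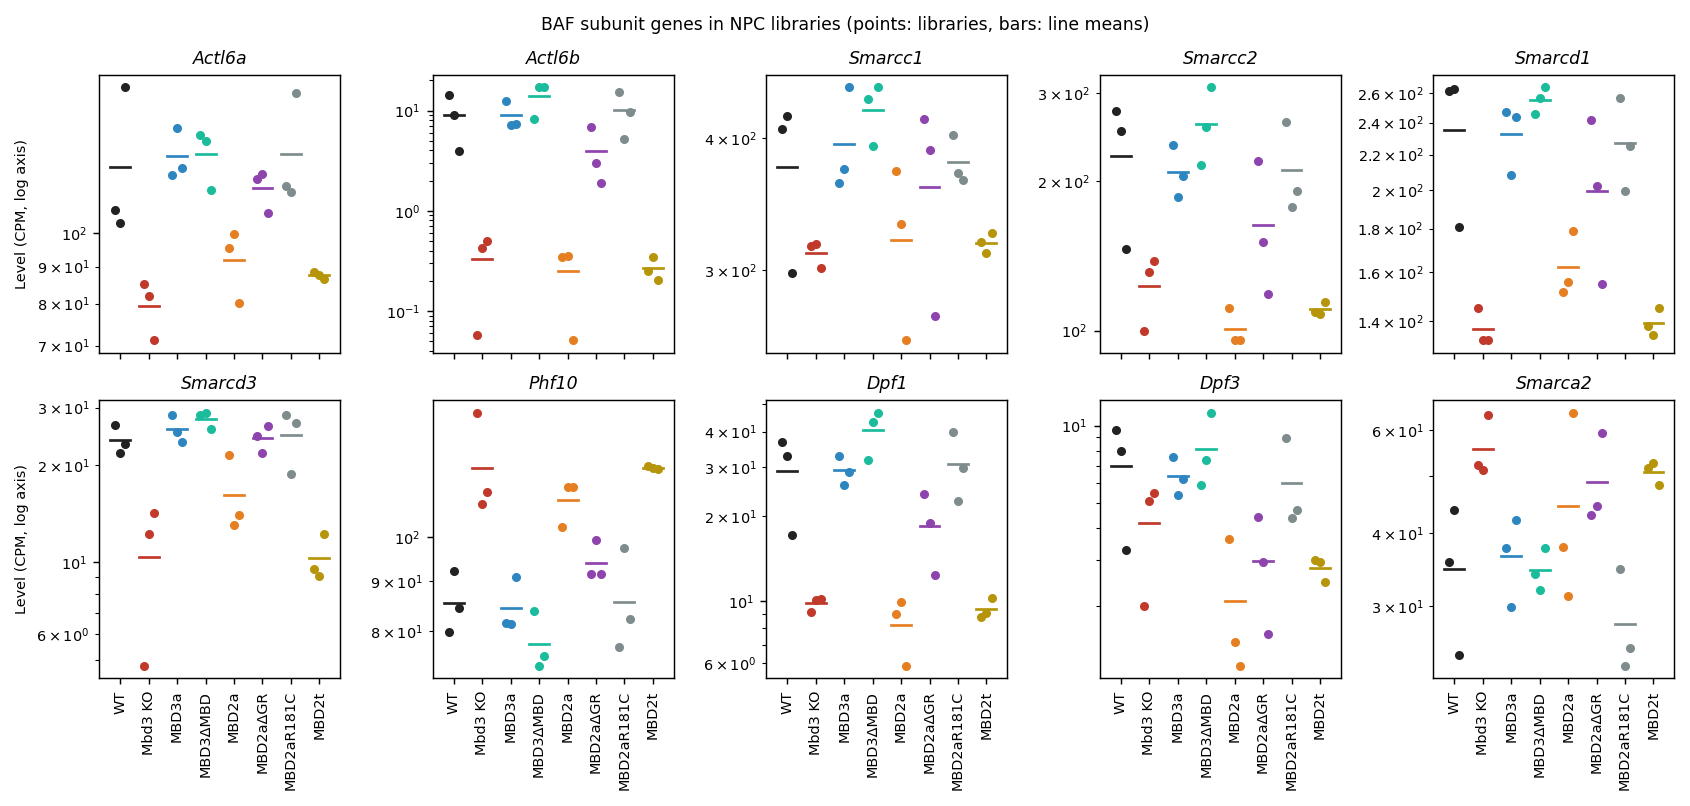
Levels of the 10 BAF subunit genes in CPM (vertical log axes, scaled to each gene) in the 24 libraries, by line, with points for libraries and bars for line means. For *Actl6b* the *Mbd3* KO, MBD2a and MBD2t points lie at 0.503 CPM or below and all other points at 1.88 CPM or above, whereas for *Phf10* the points of these 3 lines lie highest.

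*Actl6a* (chromosome 3, 32607468 to 32625890, plus strand, mm9), the form carried by ESCs and progenitors, was lower in the same direction and by much less. The WT libraries held 108, 103 and 159 CPM and those of *Mbd3* KO 85.2, 81.9 and 71.2 CPM, without overlap. The values were 95.6, 100.0 and 80.2 CPM with MBD2a and 88.5, 87.5 and 86.6 CPM with MBD2t, again below every WT library. The log2 fold change was -0.64 (adjusted p = 0.00119, standard error 0.149) in *Mbd3* KO, -0.43 (adjusted p = 0.0202) in MBD2a and -0.50 (adjusted p = 0.00744) in MBD2t, and none passed the fold threshold. The other 4 lines had 107 to 156 CPM. In none of the 3 lines with low *Actl6b* was *Actl6a* higher than in WT. In the annotation, 447 exonic bases of *Actl6a* overlap *Mrpl47* on the opposite strand, and the strand setting of the counting is not given in the sources used here. *Mrpl47* held 22.4 ± 3.42 CPM in WT and 15.8 ± 1.39 CPM in *Mbd3* KO.

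Within the PHD finger group, the neural gene *Dpf1* fell and the progenitor gene *Phf10* rose in *Mbd3* KO. *Dpf1* (chromosome 7, 30088970 to 30102607, plus strand, mm9) held 36.7, 32.8 and 17.1 CPM in WT, 9.12, 10.1 and 10.2 CPM in *Mbd3* KO, 8.95, 9.90 and 5.89 CPM in MBD2a and 8.73, 9.09 and 10.3 CPM in MBD2t, with no overlap between WT and any of the 3 lines. Its log2 fold change was -1.56 (adjusted p = 0.000105, standard error 0.279), -1.81 (adjusted p = 4.33e-05) and -1.62 (adjusted p = 6.98e-05) in these lines, in this order. *Dpf3* (chromosome 12, 84314732 to 84451882, minus strand, mm9) was the member with the lowest mean level in WT, at 9.66, 7.98 and 3.29 CPM. In *Mbd3* KO, *Dpf3* held 2.00, 5.11 and 5.50 CPM. These 2 sets overlapped, and the log2 fold change was -0.71 (adjusted p = 0.179, standard error 0.451). *Dpf3* fell to 3.63, 1.44 and 1.17 CPM in MBD2a, with a log2 fold change of -1.75 (adjusted p = 0.00548), and to 3.02, 2.97 and 2.47 CPM in MBD2t, with -1.30 (adjusted p = 0.0209). In MBD2a 1 library lay within the WT range, and the MBD2t call was lost without WT library s01 (-1.003, adjusted p = 0.112), WT library s02 (-1.20, adjusted p = 0.0628) or MBD2t library s24 (-1.22, adjusted p = 0.0708).

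*Phf10* (chromosome 17, 15081999 to 15129820, minus strand, mm9), the form of ESC and progenitor complexes, held 80.0, 92.2 and 84.5 CPM in WT and 134, 108 and 111 CPM in *Mbd3* KO. It held 102, 113 and 112 CPM in MBD2a and 118, 118 and 117 CPM in MBD2t, so that all 9 libraries lay above the highest WT library. The log2 fold change was 0.46 (adjusted p = 0.000519, standard error 0.0980) in *Mbd3* KO, 0.35 (adjusted p = 0.00532) in MBD2a and 0.46 (adjusted p = 0.000536) in MBD2t. All 3 were under the fold threshold. *Phf10* shares 485 exonic bases with *1600012H06Rik* on the opposite strand, whose log2 fold change in *Mbd3* KO was 0.14 (adjusted p = 0.353).

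Of the scaffold genes, *Smarcc2* fell and *Smarcc1* was not shown to differ. *Smarcc2* (chromosome 10, 127896292 to 127927229, plus strand, mm9) held 276, 252 and 146 CPM in WT, 99.9, 131 and 138 CPM in *Mbd3* KO, 111, 95.6 and 95.8 CPM in MBD2a and 109, 108 and 114 CPM in MBD2t. Every library of the 3 lines lay below the lowest WT library, which was s03. The log2 fold change was -0.87 (adjusted p = 0.00307, standard error 0.229) in *Mbd3* KO, -1.16 (adjusted p = 0.000384) in MBD2a and -1.02 (adjusted p = 0.000830) in MBD2t. The MBD2a and MBD2t values lay near the fold threshold, and the calls ended with another scaling (-0.996 in MBD2a with library size only, -0.98 in MBD2t with RLE) and without WT library s01 (-0.99 in MBD2a, -0.86 in MBD2t) or, in MBD2t, s02 (-0.94). *Smarcc1* (chromosome 9, 110034541 to 110142682, plus strand, mm9) held 408, 420.2 and 298 CPM in WT and 316, 318 and 301 CPM in *Mbd3* KO. These overlapped, and the log2 fold change was -0.27 (adjusted p = 0.137, standard error 0.153). It was -0.23 (adjusted p = 0.211) in MBD2a and -0.24 (adjusted p = 0.190) in MBD2t.

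*Smarcd1* and *Smarcd3*, the alternatives that link the complex to transcription factors, both fell in *Mbd3* KO. *Smarcd1* (chromosome 15, 99532718 to 99544426, plus strand, mm9) held 261, 263 and 181 CPM in WT and 145, 133 and 133 CPM in *Mbd3* KO, with a log2 fold change of -0.78 (adjusted p = 0.000182, standard error 0.148). With MBD2a it held 151, 156 and 179 CPM, with a log2 fold change of -0.54 (adjusted p = 0.00469), and with MBD2t the fold change was -0.75 (adjusted p = 0.000253). In MBD2a library s15, the highest of these, the median gene of chromosome 15 deviated from the mean of the other libraries of the line by 0.121 on the log2 scale relative to all genes, against -0.0871 and -0.0555 in the other 2 libraries. Without s15 the fold change was -0.61 (adjusted p = 0.00848). *Smarcd3* (chromosome 5, 24096636 to 24107830, minus strand, mm9), known from heart and neural development, held 26.5, 21.7 and 23.2 CPM in WT and 4.80, 12.2 and 14.2 CPM in *Mbd3* KO. The libraries did not overlap, but *Mbd3* KO library s04 was far below the other 2, and without it the call was lost and the log2 fold change moved from -1.19 (adjusted p = 0.000974, standard error 0.271) to -0.85 (adjusted p = 0.00244). *Smarcd3* held 21.5, 13.1 and 14 CPM in MBD2a, with a log2 fold change of -0.56 (adjusted p = 0.0819), and 9.57, 9.09 and 12.2 CPM in MBD2t, with -1.21 (adjusted p = 0.000815). Of 4545 exonic bases of *Smarcd3*, 2466 overlap *Chpf2* on the opposite strand and 98 overlap *Mir671*. *Chpf2* held 28.5 ± 3.54 CPM in WT and 42.6 ± 5.0 CPM in *Mbd3* KO (log2 fold change 0.58, adjusted p = 0.113), so that its direction differed from that of *Smarcd3*. In MBD2aΔGR *Chpf2* held 61.3 ± 46.2 CPM, from 34.4 to 115 CPM, with a log2 fold change against WT of 1.10 (adjusted p = 0.0362, quasi-likelihood test). If the counting ignored strand, the reads of *Smarcd3* and these overlapping genes could not be told apart. The part of *Chpf2* in the *Smarcd3* level of MBD2aΔGR was not tested.

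*Smarca2* (chromosome 19, 26679650 to 26852811, plus strand, mm9), the BRM ATPase, was higher in *Mbd3* KO. It held 35.7, 43.8 and 24.7 CPM in WT, 52.3, 51.3 and 63.5 CPM in *Mbd3* KO and 51.6, 52.6 and 48.3 CPM in MBD2t, and neither line overlapped WT. The log2 fold change was 0.68 (adjusted p = 0.0168, standard error 0.233) in *Mbd3* KO and 0.55 (adjusted p = 0.0485) in MBD2t. With MBD2a the libraries spread from 31.3 to 64.2 CPM, and the log2 fold change was 0.36 (adjusted p = 0.201). With MBD3a the libraries held 37.7, 29.9 and 42.0 CPM. In the highest of them, s09, the median gene of chromosome 19 deviated by 0.253 on the log2 scale relative to all genes, against -0.115 and -0.135 in the other 2, and without it the log2 fold change against WT moved from 0.07 to -0.038, both with an adjusted p = 1. The part of these chromosome-wide deviations was not tested. The lowest line mean, 28 ± 5.87 CPM (SD, n = 3), was that of MBD2aR181C, whose libraries overlapped those of WT. *Smarca4*, the alternative ATPase, fell instead in *Mbd3* KO, with WT at 469 ± 132 CPM and *Mbd3* KO at 333 ± 9.33 CPM (SD, n = 3) and a log2 fold change of -0.49 (adjusted p = 0.0237, standard error 0.180). Its libraries overlapped, and WT library s03 held 318 CPM.

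The lines with an MBD3 construct were next compared with *Mbd3* KO, whose libraries also enter the comparison with WT. With MBD3a, 3 members were called higher than in *Mbd3* KO (*Actl6b*, *Dpf1* and *Smarcd3*), against 13.5% of all genes, and 8 differed by adjusted p alone (57.8% of all genes). The log2 fold change of *Actl6b* was 4.73 (adjusted p = 1.86e-05, standard error 0.698). With MBD3ΔMBD, 4 members were called higher (*Actl6b*, *Dpf1*, *Smarcd3* and *Smarcc2*), against 15% of all genes, and 9 differed by adjusted p alone (62% of all genes). *Actl6b* was at 5.38 (adjusted p = 2.71e-06) and *Dpf1* at 2.05 (adjusted p = 5.65e-06) there. *Phf10* was lower than in *Mbd3* KO in both lines, with log2 fold changes of -0.48 (adjusted p = 0.000424) and -0.60 (adjusted p = 3.60e-05). *Smarca2* was lower as well, at -0.61 (adjusted p = 0.0322) and -0.69 (adjusted p = 0.0157).

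The MBD2a variants with an altered domain differed from *Mbd3* KO too. With MBD2aR181C, 3 members were called higher (*Actl6b* at 4.89, *Dpf1* at 1.65 and *Smarcd3* at 1.24), against 13% of all genes, and 8 differed by adjusted p alone (56.7%). *Smarca2* was lower, with a log2 fold change of -0.99 (adjusted p = 0.00144). With MBD2aΔGR, 2 members were called higher, against 9.86% of all genes: *Actl6b* at 3.51 (adjusted p = 0.000760) and *Smarcd3* at 1.21 (adjusted p = 0.00125). By adjusted p alone 6 differed (46.9% of all genes). Without *Mbd3* KO library s04, 1 member was called. *Mbd2* RNA, which counts both the endogenous gene and any construct reads mapped to it, was 66.8 ± 3.56 CPM (SD, n = 3) in *Mbd3* KO and 80.2 ± 11.4 CPM in MBD2a, where the log2 fold change was 0.26 (adjusted p = 0.508) and the libraries overlapped. It was 477 ± 211 CPM in MBD2aΔGR, 278 ± 41.1 CPM in MBD2aR181C and 344 ± 10.9 CPM in MBD2t, all called higher than in *Mbd3* KO. Construct RNA in the MBD2a line was thus not told apart from endogenous *Mbd2* RNA by this count of NPC RNA. The count cannot show that construct RNA was absent, and it does not measure the protein. By Western blot of ESC lines, the paper reports MBD2a and MBD2aΔGR protein at equal levels. With MBD2a itself 0 members were called and 1 had an unadjusted p under 0.05 (*Smarcd3*, with a log2 fold change of 0.63 and an adjusted p = 0.168), while 5.25% of all genes were called. With MBD2t 0 members were called, none had an unadjusted p under 0.05, and 0.0241% of all genes were called. DESeq2 called 0 members in both. The standard error of *Actl6b* was 1.17 in MBD2a and 1.09 in MBD2t against *Mbd3* KO. Differences of that size, and larger ones, could have gone uncalled at these counts, and the smallest detectable difference was not determined.

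The MBD2 lines were also compared directly. These lines differed in *Mbd2* RNA as well as in the construct they carry: MBD2a stood at -2.57 (adjusted p = 1.66e-06) against MBD2aΔGR, -1.79 (adjusted p = 5.01e-06) against MBD2aR181C and -2.10 (adjusted p = 7.51e-06) against MBD2t on the log2 scale. By these RNA counts, the level of the construct and its domains cannot be told apart here. Against MBD2aΔGR, MBD2a was lower in 2 called members, *Actl6b* at -3.98 (adjusted p = 0.00103) and *Dpf1* at -1.17 (adjusted p = 0.00385), with 8.02% of all genes called lower. Without MBD2a library s15 or MBD2aΔGR library s16, 1 was called. *Smarcc2* was lower by adjusted p alone, at -0.69 (adjusted p = 0.0247). Against MBD2aR181C, MBD2a was lower in 4 called members, with 12.2% of all genes called lower. These were *Actl6b* at -5.36 (adjusted p = 1.78e-05), *Dpf1* at -1.90 (adjusted p = 3.42e-05), *Dpf3* at -1.55 (adjusted p = 0.0132) and *Smarcc2* at -1.06 (adjusted p = 0.000967). Without MBD2a library s14 or MBD2aR181C library s19, 2 were called. *Phf10* was higher in MBD2a than in MBD2aR181C, at 0.35 (adjusted p = 0.00641). Between MBD2a and MBD2t no member was called by edgeR or DESeq2 and 1 had an unadjusted p under 0.05 (*Smarcd3*, with a log2 fold change of 0.65 and an adjusted p = 0.173), against 4% of all genes called.

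Ratios of alternative subunits within a library do not depend on library scaling. Levels per kb of exon were used with a prior count of 1, and line values are geometric means of 3 libraries. *Actl6b* stood at 9.39% of *Actl6a* in WT, 0.488% in *Mbd3* KO, 0.345% in MBD2a and 0.457% in MBD2t. MBD2aΔGR lay between, at 4.20%, with libraries that overlapped WT. The sum of *Dpf1* and *Dpf3* stood at 55.1% of *Phf10* in WT and at 16.3% in *Mbd3* KO, and *Smarcc2* went from 77.1% to 51.7% of *Smarcc1*. Both ratios were lower in every *Mbd3* KO, MBD2a and MBD2t library than in any WT library. *Smarca2* went from 7.50% of *Smarca4* in WT to 16.8% in *Mbd3* KO, 12.7% in MBD2a and 14.9% in MBD2t, without overlap. The MBD2a libraries were uneven, at 9.78%, 8.33% and 25.0%, with the highest WT library at 7.97%. MBD2aΔGR stood at 10.8%, with libraries at 7.90%, 9.77% and 16.2% that overlapped those of WT and of MBD2a. In MBD3ΔMBD (5.85%) and MBD2aR181C (5.58%) it lay below every WT library. *Smarcd3* over *Smarcd1* overlapped WT in all 7 lines, at 7.11% in WT and 4.79% in *Mbd3* KO. An exact two-sided permutation test of 3 against 3 libraries cannot go under p = 0.1, which every ratio without overlap reached (0.25 after Benjamini-Hochberg adjustment over 35 tests), so none could pass.

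**Figure D3:**
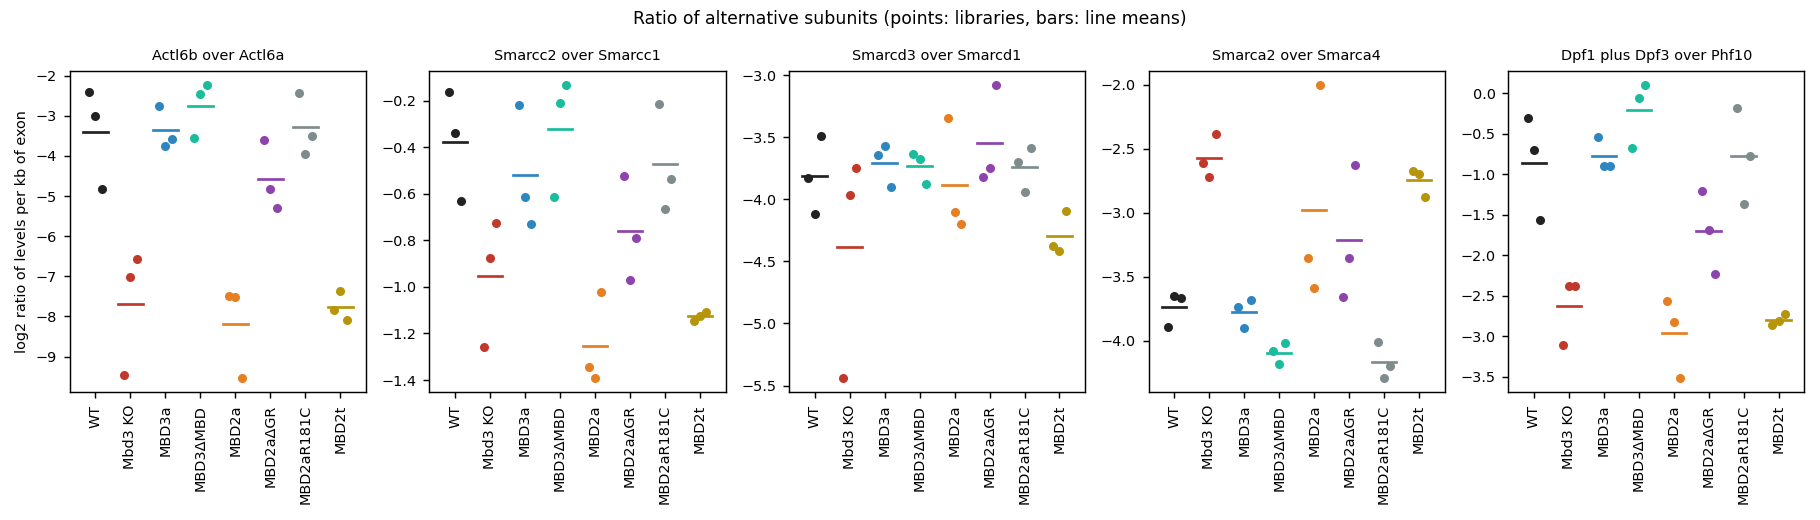
Log2 ratio of the levels per kb of exon of alternative BAF subunits (vertical axes) in each library by line, with points for libraries and bars for the means of 3. The ratio of *Actl6b* to *Actl6a* is lowest in *Mbd3* KO, MBD2a and MBD2t (line means of -7.68, -8.18 and -7.77, against -3.41 in WT). For *Smarca2* to *Smarca4* the line means are highest in these lines, and the libraries of MBD2a and MBD2aΔGR overlap.

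The other 21 BAF, PBAF and ncBAF subunit genes of a list were all tested. In *Mbd3* KO 1 was called higher and 4 lower (all genes 19.6% and 14.2%), and by adjusted p alone 1 was higher and 14 were lower (all genes 29.5% and 30.8%). *Bcl11a*, a zinc finger subunit and neural transcription factor, fell most. Its WT libraries held 138, 116 and 49.5 CPM and its *Mbd3* KO libraries 1.03, 9.32 and 10.5 CPM, with a log2 fold change of -3.85 (adjusted p = 7.64e-05, standard error 0.668). Its exons share 316 bases with an antisense transcript, *4930538E20Rik*. *Bcl7a*, an accessory subunit, fell by 2.02 (adjusted p = 4.51e-06) on the log2 scale. *Ss18l1* (CREST), which takes the place of *Ss18* in neurons, held 43.7, 40.8 and 21.2 CPM in WT and 12.8, 12 and 14.4 CPM in *Mbd3* KO, with a log2 fold change of -1.43 (adjusted p = 0.000455). *Ss18* itself was at -0.29 (adjusted p = 0.00482) and *Dpf2*, the ubiquitous relative of *Dpf1*, at -0.44 (adjusted p = 0.000174). *Bcl11b* was called at -1.35 (adjusted p = 0.0382) although its *Mbd3* KO and WT libraries overlapped.

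*Smarcd2* (BAF60b), the remaining form at the position of *Smarcd1* and *Smarcd3*, rose in *Mbd3* KO. The WT libraries held 37.5, 41.3 and 45.0 CPM, and those of *Mbd3* KO held 94.8, 104 and 109 CPM. Its log2 fold change was 1.31 (adjusted p = 3.71e-07, standard error 0.134) in *Mbd3* KO, 0.94 (adjusted p = 1.73e-05) in MBD2a and 1.17 (adjusted p = 1.25e-06) in MBD2t. The direction was thus opposite to that of both members at this position. In MBD2a 0 genes of this list were called higher and 4 lower (all genes 16.9% and 13.7%), and in MBD2t 1 higher and 4 lower (all genes 18.2% and 15.1%). The 4 of 21 called lower were near these shares of all genes. The 4 called lower were *Bcl11a*, *Bcl7a*, *Ss18l1* and *Bcl11b* in each of the 3 comparisons, which share the WT libraries. The median log2 fold change of the list was -0.49 in *Mbd3* KO, -0.41 in MBD2a and -0.45 in MBD2t. No gene of the list was called against WT in the other 4 lines by edgeR or DESeq2, while 5 had an unadjusted p under 0.05 in MBD2aΔGR, 2 in MBD3ΔMBD and none in MBD3a or MBD2aR181C.

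**Figure D4:**
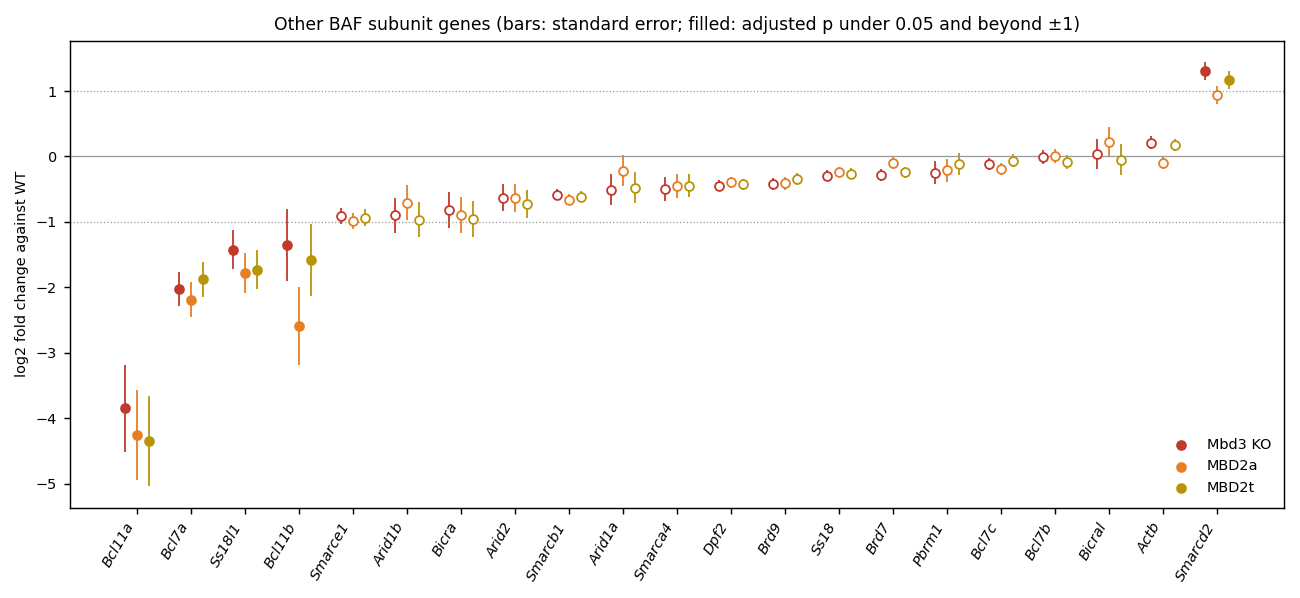
Log2 fold change against WT (vertical axis) of 21 further BAF, PBAF and ncBAF subunit genes (horizontal axis) in *Mbd3* KO, MBD2a and MBD2t, with bars for the standard error and filled points for called genes. *Bcl11a*, *Bcl7a*, *Ss18l1* and *Bcl11b* lie below -1 in all 3 lines, and *Smarcd2* is the gene that lies above 1, in *Mbd3* KO and MBD2t.

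Marker genes of neural and other cell types also differed from WT, to an extent that varied by list and line. Across all genes, 19.6% were called higher and 14.2% lower in *Mbd3* KO, 16.9% and 13.7% in MBD2a, 18.2% and 15.1% in MBD2t and 2.69% and 2.47% in MBD2aΔGR. All 10 neuron genes were called lower than in WT in *Mbd3* KO, MBD2a and MBD2t, with none of them at 0 counts in any library of these lines. Their summed level was 1412 to 3388 CPM in WT. It was 119 to 269 CPM in *Mbd3* KO, 71.2 to 243 CPM in MBD2a, 176 to 195 CPM in MBD2t and 839 to 2202 CPM in MBD2aΔGR. All 9 neural progenitor genes tested were called lower in the 3 lines. Of 10 pluripotency genes, 10 were called higher in *Mbd3* KO, 9 in MBD2a and 10 in MBD2t, and their sum was 25.7 to 188 CPM in WT and 344 to 1073 CPM in *Mbd3* KO. Of 10 trophoblast genes, 9 were called higher in *Mbd3* KO, 5 in MBD2a and 9 in MBD2t, with sums of 24.1 to 58.0 CPM in WT and 658 to 886 CPM in *Mbd3* KO. Of 10 endoderm genes, 2 were called higher in *Mbd3* KO, 5 in MBD2a, 2 in MBD2t (where 1 was called lower) and 9 in MBD2aΔGR. The counts of *Mbd3* KO and MBD2t were near the shares of all genes. The endoderm sum of MBD2aΔGR was 3592 CPM in library s18, against 382 CPM in s16 and 284 CPM in s17. It was 794, 144 and 664 CPM in the MBD2a libraries and 181 to 257 CPM in WT. Of 9 mesoderm and muscle genes tested, 3 were called higher and 2 lower in *Mbd3* KO, 1 and 4 in MBD2a, 3 and 2 in MBD2t and 0 and 3 in MBD2aΔGR. The part of these genes' cell types in the changes of the members was not tested, and in bulk RNA fewer cells of a type and less RNA per cell cannot be told apart.

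**Figure D5:**
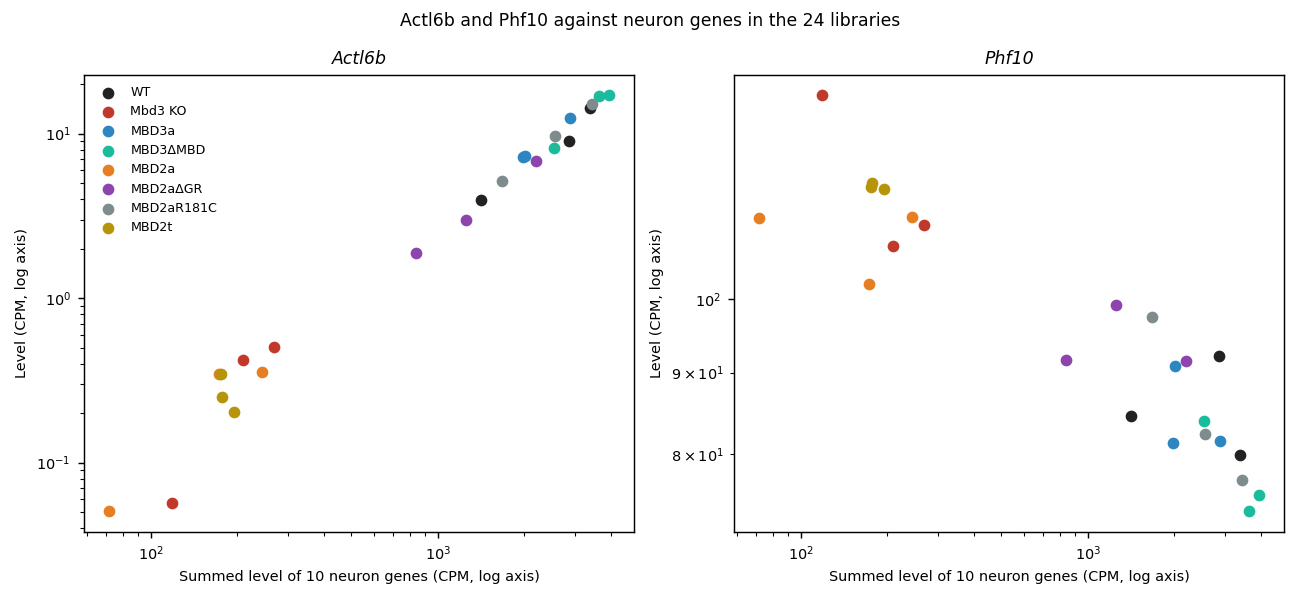
Levels of *Actl6b* (left) and *Phf10* (right) in CPM against the summed CPM of 10 neuron genes (all log axes) in the 24 libraries, coloured by line. *Actl6b* lies at 0.503 CPM or below where the sum is 269 CPM or less and at 1.88 CPM or above where it is 839 CPM or more, and *Phf10* lies lower on the right than on the left.

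Within the set, the members split by direction. Across the 24 libraries, which fall into groups by line, *Actl6b* correlated with *Dpf1* (Pearson r = 0.97 of log2 CPM, as a description) and with *Smarcc2* (r = 0.93), while *Phf10* correlated inversely with *Actl6b* (r = -0.94) and with *Smarcd3* (r = -0.92). *Actl6a* and *Actl6b* correlated positively (r = 0.78), although their products are alternatives, and this value includes the differences between lines. Within lines the direction varied. WT library s03 held the most *Actl6a* (159 CPM) and the least *Actl6b* (3.94 CPM) of its line. *Mbd3* KO library s06 held the least *Actl6a* (71.2 CPM) and the most *Actl6b* (0.503 CPM), while MBD2a library s15 held the least of both (80.2 and 0.0510 CPM). Among the 12804 genes whose mean log2 CPM was 1 or more, the 3 most like *Actl6b* were *Crmp1* (r = 0.996), *Ina* (r = 0.992) and *Myt1* (r = 0.992). The 3 most like *Actl6a* were *Srsf7* (r = 0.979), *Prmt7* (r = 0.971) and *Sf3a3* (r = 0.970). All of these libraries share the same lines, and the correlations are given with no test.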

How the data were processed

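The deposited values are the authors' counts of reads per gene for 25400 genes, not normalized. Per the labels and the study's methods, poly(A) RNA was made into directional libraries, reads were trimmed with Trim Galore, aligned with STAR to mm9 and counted with QuasR. Trim Galore, STAR and mm9 are also named in the submitters' processing notes. The strand setting of the counting is not given in the sources used here. Columns were assigned to lines by group name. Those of MBD2aR181C are headed R64C and were assigned to it because it is the only point mutant among the labels. Of the columns, 0 belonged to other samples. The 6 ChIP-seq samples were not analysed here.

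From these counts, genes were filtered with filterByExpr (16582 kept), scaled with TMM and fitted with the quasi-likelihood test in edgeR (version 4.0.16, R 4.3.3), where 1 fit held the 24 libraries and gave 16 contrasts between lines. Called genes had a Benjamini-Hochberg adjusted p under 0.05 and a log2 fold change above 1 or below -1. On counts simulated for *Mbd3* KO against WT with 16311 genes, 80.6% of genes with an absolute log2 change of 1.5 were called, 94.0% at 2 and 95.5% at 3, with 8 false calls. Only 67, 67 and 66 genes were changed at these sizes, all above a count limit. The simulated spread followed the fitted trend and held no library that stood apart, so the rates apply to that setting. Alternatives were DESeq2 1.42.0, other scalings, no filter, adjusted p alone, fits of 2 lines and leaving out each library. All members of the set were named, with the other BAF genes called in *Mbd3* KO and *Smarca4*, *Ss18*, *Ss18l1* and *Dpf2*, and the 3 genes most like each actin-like subunit. Members and lists were chosen with earlier results of these data known. Promoters and the miRNA are from RefSeq, and gene models and 3′ UTRs from the mm9 annotation. P-values of the main fit measure the spread between libraries of the same line, estimated over all 8 lines together rather than the 2 compared. This estimate includes MBD2t, whose libraries hold no difference between clones.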

Additional observations from a re-analysis of the deposited data

How the results depend on the processing

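Scaling by RLE, library size only, no filter on low counts, DESeq2 and a legacy quasi-likelihood test (chosen after the data had been seen) kept every count of called members within 1.5 times its value. By adjusted p alone, the counts against WT were 8 in *Mbd3* KO, 7 in MBD2a and 9 in MBD2t, those against *Mbd3* KO were 8 with MBD3a, 9 with MBD3ΔMBD, 6 with MBD2aΔGR and 8 with MBD2aR181C, and MBD2a against MBD2aR181C gave 8. With only the 2 lines compared in the fit, MBD2aΔGR against *Mbd3* KO and MBD2a against MBD2aΔGR gave 1 each. Library size alone moved the median log2 fold change of all genes from -0.03 to 0.11 in *Mbd3* KO, from -0.01 to 0.14 in MBD2a and from -0.04 to 0.12 in MBD2t.

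Leaving out each library in turn gave 2 to 5 called members in *Mbd3* KO against WT, 3 to 5 in MBD2t and 0 to 2 in MBD2aΔGR. It gave 1 to 3 for MBD2aΔGR against *Mbd3* KO, 1 to 2 for MBD2a against MBD2aΔGR and 2 to 4 for MBD2a against MBD2aR181C. Of the other 21 subunit genes, 4 to 7 were called in MBD2a (the highest without s03) and 0 to 2 in MBD2aΔGR (the highest without s16). The log2 ratio of *Actl6b* to *Actl6a* minus WT ran over -0.65 to 0.55 in MBD3a, -0.042 to 1.16 in MBD3ΔMBD and -5.06 to -3.86 in MBD2t. That of *Smarcc2* to *Smarcc1* ran over -0.88 to -0.64 in MBD2t, that of *Smarcd3* to *Smarcd1* over -0.070 to 0.25 in MBD3ΔMBD, and that of *Dpf1* plus *Dpf3* to *Phf10* over -0.27 to 0.36 in MBD3a and -2.29 to -1.67 in MBD2t.

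Log2 fold changes against WT that were near 0 and uncalled changed sign when a library was left out, for which the cause was not tested. They ran over -0.080 to 0.28 for *Actl6a*, -0.37 to 0.46 for *Actl6b*, -0.17 to 0.069 for *Smarcd1*, -0.069 to 0.14 for *Smarcc1*, -0.34 to 0.044 for *Smarcc2*, -0.25 to 0.20 for *Dpf1*, -0.46 to 0.17 for *Dpf3*, -0.086 to 0.023 for *Phf10* and -0.12 to 0.26 for *Smarca2* in MBD3a. In MBD3ΔMBD they ran over -0.080 to 0.28 for *Actl6a*, -0.037 to 0.19 for *Smarcd1*, -0.020 to 0.36 for *Smarcc2*, -0.11 to 0.53 for *Dpf3* and -0.20 to 0.17 for *Smarca2*, in MBD2aΔGR over -0.23 to 0.13 for *Actl6a*, -0.065 to 0.075 for *Smarcd3* and -0.23 to 0.10 for *Smarcc1*, and in MBD2aR181C over -0.10 to 0.29 for *Actl6a*, -0.32 to 0.62 for *Actl6b*, -0.20 to 0.021 for *Smarcd1*, -0.098 to 0.20 for *Smarcd3*, -0.13 to 0.085 for *Smarcc1*, -0.33 to 0.054 for *Smarcc2*, -0.18 to 0.28 for *Dpf1*, -0.65 to 0.093 for *Dpf3* and -0.12 to 0.038 for *Phf10*. Scaling changed the sign of *Actl6b* in MBD3a (0.0022 with library size only), *Dpf1* in MBD3a (-0.0041 with RLE, -0.0054 with DESeq2), *Smarcc1* in MBD2aR181C (-0.012 with both) and *Phf10* in MBD2aR181C (-0.026 with both).

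No paired analysis was possible because the deposited columns carry no replicate numbers. Depth limits *Actl6b* in *Mbd3* KO, MBD2a and MBD2t, where libraries held 2 to 19 counts, and *Dpf3*, with as few as 46 counts. Libraries of a line measure the spread between clones, except in MBD2t.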
